A study of Homo sapiens with 10 samples.

Results

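The 10 genes examined here drive entry into mitosis and the exit from it: the anaphase-promoting complex (APC/C) coactivators CDC20 and FZR1, the kinases PLK1 and AURKA, the APC/C-dedicated ubiquitin-conjugating enzymes UBE2C and UBE2S, the APC/C substrate PTTG1, and the phosphatases CDC25A, CDC25B and CDC25C. They were taken by symbol from 2 tables of the series. All 10 are among the 13279 genes of the RNA-Seq table, and 9 are among the 11337 genes of the Ribo-Seq table, from which CDC25C is missing. The cells were BJ cells, human fibroblasts immortalised with telomerase (hTERT), cultured in medium with fetal calf serum. They were given nutlin-3a, which blocks the binding of MDM2 to p53, for 2, 4, 6 or 19 h, and were compared with a control sample at 0 h. Transcript levels came from RNA-Seq on poly(A) RNA, and ribosome densities from Ribo-Seq, in which the stretches of mRNA covered by ribosomes are sequenced. Both assays had 5 libraries, 1 for each time, so differences could not be set against a spread between replicates and none was tested for significance.

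Entry into mitosis is triggered by CDK1 bound to cyclin B. CDC25 phosphatases remove the inhibitory phosphates from cyclin-dependent kinases, with CDC25A acting also before S phase, and PLK1 and AURKA promote this activation and then build the spindle. The APC/C, a ubiquitin ligase of many subunits, ends mitosis by marking securin (PTTG1) and cyclin B for destruction. CDC20 brings substrates to it in mitosis and FZR1 takes over at mitotic exit and in G1, while UBE2C starts the ubiquitin chains and UBE2S extends them. In proliferating fibroblasts most of these transcripts accumulate late in the cell cycle, and p53 activation is known to arrest the cycle.

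Values are FPKM, read numbers corrected for the length of the transcript and the depth of the library, and changes are log2 ratios to the control of that assay after raising values below 1 FPKM to 1. The reads behind each value were worked out from the steps in which FPKM values rise, and they gave the counting standard error (SE) printed with each change; it covers counting only and not the spread between cultures. The libraries held 23845569 to 27554282 reads in RNA-Seq and 7744907 to 14460726 in Ribo-Seq. Of 9 fibroblast markers 9 were at 5 FPKM or more in the RNA-Seq control, and their sum was 8147 to 10515 FPKM over the 5 libraries. The endothelial marker VWF was at 0.095 FPKM and the leukocyte marker PTPRC at 0.11 FPKM there. Of the epithelial markers CDH1 was at 0.017 FPKM, whereas the keratins KRT8 and KRT18 were at 12.4 and 293 FPKM. The p53 targets listed as a check of the treatment rose. RNA of CDKN1A, the gene of the inhibitor p21, was at 68.6 FPKM without treatment and at 1316 FPKM after 19 h. All 6 of 6 listed targets were at least 2-fold higher at 4, 6 and 19 h. The study names these 6 among the p53 targets in its cluster induced by nutlin-3a, so their rise was known beforehand and is no independent check. Over the 7015 tested genes, which reached 5 FPKM in 1 or more libraries of both assays, the median log2 change of RNA lay between -0.07 and -0.00239, and that of ribosome density was 0.10 at 4 h and -0.19 at 19 h. In Ribo-Seq the 2 most abundant transcripts, those listed as ZNF354B and LGALS1, held 10.98% of the summed FPKM in the control, 4.49% at 4 h and 11.3% at 19 h. Rescaling without them moved the median density change to -0.05 at 4 h, 0.10 at 6 h and 0.11 at 19 h, so small density changes depend on the scaling. The labels name no sequencing run, so a run or the preparation of a library cannot be told apart from its time.

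The promoters of CDC20, PLK1 and CDC25A are shown because the first pair fell together late and the third fell earlier, as described below. RefSeq windows of 250 bases before to 50 after a start (build GRCh38.p14) were found for 8 of the 10 genes, with none for AURKA and UBE2C. The windows were searched on both strands for TTTGAA (the cell-cycle homology region, CHR), for CCAAT, and for TTCGCGC or TTGGCGC (E2F sites). Of 35116 windows in the table, 15.2% hold TTTGAA, 34.6% hold CCAAT and 5.06% hold one of the E2F words. The 120 bases just upstream of the start are given 5′ to 3′ on the gene's strand, with these words on either strand in capitals. They lie at chr1:43358861-43358980 (plus strand) for CDC20, chr16:23678769-23678888 (plus strand) for PLK1 and chr3:48188418-48188537 (minus strand) for CDC25A.
CDC20: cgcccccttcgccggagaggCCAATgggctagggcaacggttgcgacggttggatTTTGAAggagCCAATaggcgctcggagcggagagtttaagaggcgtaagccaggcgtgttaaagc
PLK1: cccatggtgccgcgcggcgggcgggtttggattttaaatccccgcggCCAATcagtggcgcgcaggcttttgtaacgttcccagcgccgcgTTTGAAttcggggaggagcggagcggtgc
CDC25A: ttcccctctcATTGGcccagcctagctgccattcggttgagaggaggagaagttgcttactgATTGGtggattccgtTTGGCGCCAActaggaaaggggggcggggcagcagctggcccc

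CDC20 has TTTGAA from position -65 and CCAAT from -100 and -55, counted to the first base of the word from the start, and a further TTTGAA on the opposite strand at -178. PLK1 has TTTGAA at -29 and CCAAT at -73. CDC25A holds no TTTGAA in its window, has CCAAT on the opposite strand at -110 and -58, and has TTGGCGC at -43 that overlaps the same word on the opposite strand at -40. TTTGAA is also in 1 of 2 windows of FZR1, at -226, and in 2 of 4 windows of CDC25C. PTTG1, UBE2S and 2 of 4 CDC25B windows hold CCAAT without TTTGAA. These are matches of letters and not mapped binding sites. The printed promoters were chosen by the time courses of their genes, and a link between these words and the timing was not tested.

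Transcript levels of most of the 10 genes fell mainly after 4 h, while CDC25A, CDC25B and FZR1 took other courses. At 2 h none was 2-fold lower, and the changes ran from -0.19 in CDC25C to 0.03 in UBE2S. At 4 h CDC25A alone was past 2-fold, and 9 of 10 values lay below the control, as did those of 66.4% of the tested genes. At 6 h 9 of the 10 transcripts were at least 2-fold lower and at 19 h again 9, with median log2 changes of -2.39 and -2.78. Without the floor, which holds CDC25A and CDC25C at 1 FPKM, these medians were -2.53 and -4.06. FZR1 was not past 2-fold at any time. Without a filter on low values 4.32% of all genes in the RNA-Seq table were 2-fold lower at 6 h and 5.53% at 19 h. Of the 8 of these genes that passed the filter (CDC25A and CDC25C did not), 0, 0, 7 and 7 were 2-fold lower at 2, 4, 6 and 19 h, against 0.0143%, 0.684%, 5.39% and 7.1% of the tested genes. In bulk RNA fewer cells in mitosis and less RNA per cell cannot be told apart.

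**Figure D1:**
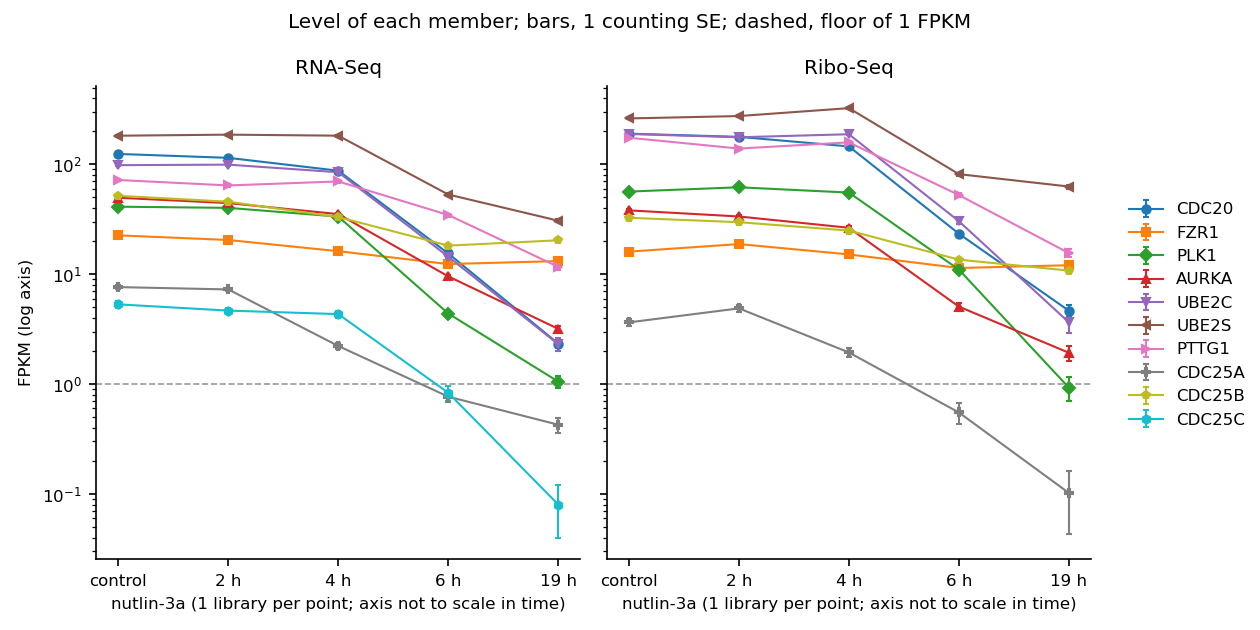
FPKM (log axis) of the 10 genes in the RNA-Seq libraries (left) and of 9 of them in the Ribo-Seq libraries (right), by time on nutlin-3a; each point is 1 library, bars are 1 counting SE and the dashed line is the floor of 1 FPKM. Most lines drop between 4 and 6 h, CDC25A drops from 2 h to 4 h, and FZR1 stays between 12.4 and 22.6 FPKM in RNA-Seq.

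The 2 coactivators of the APC/C parted. CDC20 RNA (ENSG00000117399) was at 124 FPKM in the control and at 114, 87.5, 15.4 and 2.33 FPKM at 2, 4, 6 and 19 h. The first 3 libraries were high and the last pair low, and the fall from control to 19 h was 53.3-fold (95% counting interval 44.0 to 65.1). FZR1 RNA (ENSG00000105325) was at 22.6 FPKM and then at 20.5, 16.2, 12.4 and 13.2 FPKM. Its change was -0.87 (SE 0.05) at 6 h and -0.78 (SE 0.05) at 19 h, and the step from 6 to 19 h was 0.09 (SE 0.06), within the 95% counting error as deposited but not after centring (0.15). The log2 change of CDC20 differed from that of FZR1 by -0.03 (SE 0.06) at 4 h, within counting error, and by -2.14 (SE 0.08) at 6 h and -4.96 (SE 0.15) at 19 h. The ratio of CDC20 to FZR1 in RNA, per length, went from 5.51 in the control to 5.40 at 4 h, 1.249 at 6 h and 0.177 at 19 h. Per length, FZR1 exceeded CDC20 in the 19 h library and in none of the others.

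Ribosome density of the coactivators gave the same order. CDC20 was at 190.1 FPKM in the Ribo-Seq control and at 178, 146, 23.4 and 4.65 FPKM at 2, 4, 6 and 19 h. Density of FZR1 was 16.0 FPKM and then 18.8, 15.1, 11.4 and 12.1 FPKM, a span of under 2-fold. Their density ratio went from 11.9 in the control to 2.05 at 6 h and 0.385 at 19 h.

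The 2 mitotic kinases fell to different depths, PLK1 further than AURKA in RNA. PLK1 RNA (ENSG00000166851) was at 41.1 FPKM in the control and at 40.1, 33.4, 4.38 and 1.05 FPKM thereafter. It was close to its control level at 2 h (-0.04, SE 0.04) and 9.39-fold lower at 6 h (95% counting interval 8.27 to 10.7), the largest change of the 10 genes at that time with the floor applied (without it CDC25A fell 9.94-fold). AURKA RNA (ENSG00000087586) was at 49.6 FPKM and then at 44.4, 35.2, 9.55 and 3.18 FPKM. Its change at 6 h, -2.38 (SE 0.06), was smaller than that of PLK1 by 0.85 (SE 0.11) on the log2 scale. At 19 h AURKA was 15.6-fold lower and PLK1 39.1-fold lower.

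Density of PLK1 was 56.5 FPKM in the control and 61.8, 55.3, 11.01 and 0.928 FPKM at 2, 4, 6 and 19 h. The last value rests on 16 reads and lies below the floor. Its unfloored fall was 60.9-fold, with a 95% counting interval from 37.4 to 107. Density of AURKA was 38.1, 33.5, 26.4, 5.07 and 1.93 FPKM in the same order. At 6 h the order of the kinases was reversed between the assays, since PLK1 had the larger RNA fall but the smaller density fall, by 0.55 (SE 0.17).

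The ubiquitin-conjugating enzymes differed in depth. UBE2C RNA (ENSG00000175063) was at 98.2 FPKM in the control and at 99.3, 84.7, 14.4 and 2.30 FPKM at 2, 4, 6 and 19 h. UBE2S RNA (ENSG00000108106), the most abundant of the 10 transcripts per length in all 5 libraries, was at 182 FPKM and then at 186, 182, 53.1 and 30.7 FPKM. At 4 h UBE2S stood at its control level (0.00103, SE 0.03) while UBE2C was slightly lower (-0.21, SE 0.05). At 19 h UBE2C was 42.7-fold lower and UBE2S 5.94-fold lower, a difference of -2.84 (SE 0.21) on the log2 scale. The ratio of UBE2C to UBE2S therefore went from 0.539 in the control to 0.0751.

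Density of UBE2C was 189, 176, 188, 30.4 and 3.65 FPKM from control to 19 h, and that of UBE2S was 262, 275, 325, 81.4 and 62.8 FPKM. UBE2S had its highest density at 4 h, 0.31 (SE 0.03) above the control, against 0.10 for the median tested gene at that time, and its rise was 0.16 after rescaling without the 2 most abundant transcripts. From 6 to 19 h UBE2C density fell a further 8.33-fold, and UBE2S density 1.30-fold.

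PTTG1 (ENSG00000164611), securin, fell late and less in RNA. Its RNA was at 72.0 FPKM in the control and at 64.2, 69.8, 34.6 and 11.7 FPKM at 2, 4, 6 and 19 h. At 6 h the change was -1.06 (SE 0.06), just past 2-fold, against -3.01 (SE 0.06) for CDC20. At 19 h it was 6.17-fold lower, close to the 5.94-fold of UBE2S. Density fell more, from 175 FPKM to 139, 158, 52.5 and 15.6 FPKM, an 11.2-fold fall at 19 h (95% counting interval 9.39 to 13.5). Reads were kept only where they had a single hit, so any reads shared with PTTG2, a near-identical copy that is in neither table, would be missing from these values.

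The 3 CDC25 phosphatases took 3 courses. CDC25A RNA (ENSG00000164045) was at 7.63 FPKM in the control and at 7.26, 2.22, 0.767 and 0.426 FPKM at 2, 4, 6 and 19 h. It had already dropped 3.44-fold at 4 h (95% counting interval 2.94 to 4.04), and its change then was -1.27 (SE 0.12) below that of CDC20, -1.14 (SE 0.12) below that of CDC25B and -1.49 (SE 0.18) below that of CDC25C. Of all tested genes 0.684% were 2-fold lower in RNA at 4 h. CDC25A did not pass the filter on low values, since its density did not reach 5 FPKM, so that share does not include it.

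CDC25C RNA (ENSG00000158402), the lowest of the 10 in the control, was at 5.31 FPKM and then at 4.66, 4.33, 0.832 and 0.080 FPKM. Its 19 h value rests on 4 reads against 243 in the control, a 66.4-fold fall with a 95% counting interval from 25.6 to 246. At 4 h its change was -0.29 (SE 0.14), near those of PLK1 and UBE2C (-0.30 and -0.21), and its steep fall came at 6 h. CDC25B RNA (ENSG00000101224) was at 51.7 FPKM and then at 45.7, 33.1, 18.2 and 20.3 FPKM. CDC25B declined by 6 h and then levelled off, as its change was -0.64 (SE 0.03) at 4 h, -1.51 (SE 0.04) at 6 h and -1.35 (SE 0.04) at 19 h, and the 19 h library was 0.16 (SE 0.05) above that of 6 h. The ratio of CDC25B to CDC25A in RNA rose from 6.78 in the control to 14.9 at 4 h and 47.7 at 19 h.

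In Ribo-Seq CDC25A was at 3.64 FPKM in the control and at 4.88, 1.94, 0.551 and 0.102 FPKM, from 162, 219, 106, 21 and 3 reads. The 35.7-fold fall at 19 h has a 95% counting interval from 11.95 to 174. Density of CDC25B was 32.6, 29.7, 24.9, 13.6 and 10.8 FPKM. The density of CDC25B was lower at 19 h than at 6 h, by -0.33 (SE 0.11) as deposited. The median change of the tested genes went from -0.02 to -0.19 over the same interval, and the step of CDC25B was -0.16 after centring and -0.15 after rescaling without the 2 most abundant transcripts, both within the 95% counting error.

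**Figure D2:**
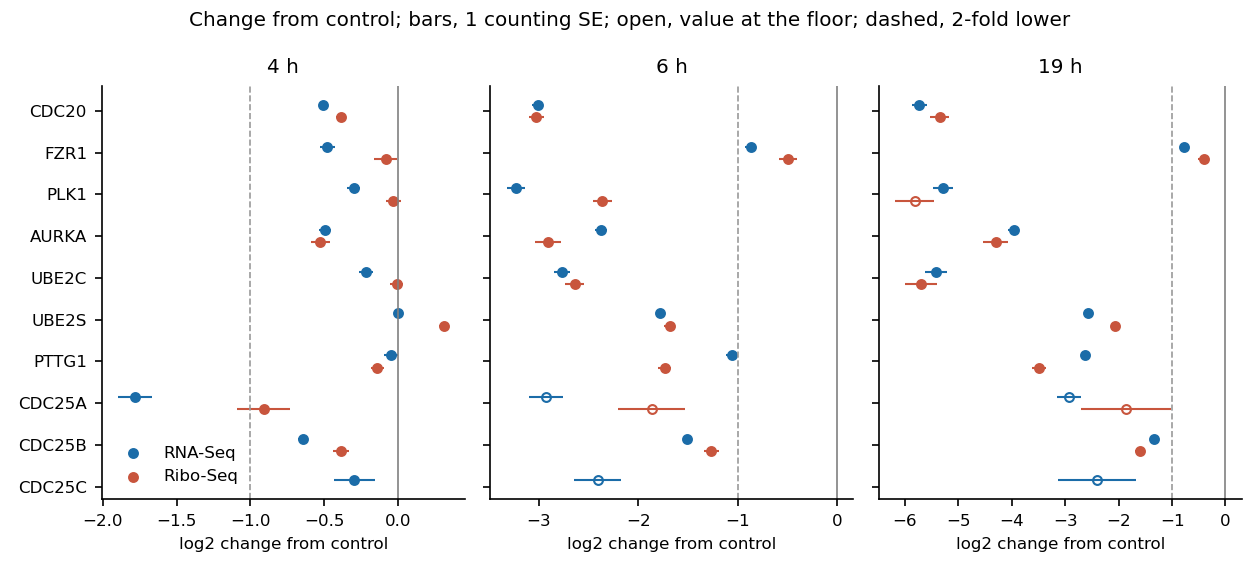
Log2 change from the control library at 4, 6 and 19 h for each gene, RNA-Seq in blue and Ribo-Seq in red; bars are 1 counting SE, open points rest on a value raised to the floor of 1 FPKM, and the dashed line marks 2-fold lower. CDC25A is the only point left of the dashed line at 4 h, and FZR1 is the only gene right of it at 6 and 19 h.

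The order of RNA levels changed over the course. In the control it ran UBE2S, CDC20, UBE2C, PTTG1, CDC25B, AURKA, PLK1, FZR1, CDC25A and CDC25C, and only CDC25B and AURKA were neighbours within the 95% counting error of each other. At 19 h it ran UBE2S, CDC25B, FZR1, PTTG1, AURKA, CDC20, UBE2C, PLK1, CDC25A and CDC25C, where FZR1 and PTTG1, and CDC20 and UBE2C, were not apart by more than that error. Against the tested genes CDC20 was at the 93.3 percentile of control levels and UBE2S at the 96.0 percentile, whereas CDC25A was at the 10.96 percentile and CDC25C at the 3.71 percentile.

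Density followed RNA in the number of genes. At 6 h 8 of the 9 genes in the Ribo-Seq table were at least 2-fold lower and at 19 h again 8, FZR1 being the exception, against 7.21% and 12.5% of all genes in that table. Of the 8 that passed the filter, 0, 0, 7 and 7 were 2-fold lower at 2, 4, 6 and 19 h, beside 0.128%, 0.527%, 8.04% and 14.9% of the tested genes. Median log2 changes of density over the 9 genes were -0.10, -0.14, -1.86 and -3.49. The last pair became -2.36 and -4.31 without the floor, to which CDC25A was raised at 6 and 19 h and PLK1 at 19 h.

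Translation efficiency (TE), the log2 ratio of Ribo-Seq to RNA-Seq FPKM, sets ribosome density against transcript level. Reads outside the coding sequence may be part of the densities, so a TE change need not be one of ribosome load alone. The study lists unlike shares of coding-sequence reads for its control, 6 h and 19 h Ribo-Seq libraries. Whether this shaped the TE values was not tested. None of the 8 genes that passed the filter changed 2-fold in TE at any time. Of the tested genes 1.2%, 0.998%, 5.74% and 6.14% did in either direction at 2, 4, 6 and 19 h. A count of 0 among 8 lies near these shares. Several TE changes under 2-fold were nevertheless larger than the counting error. PLK1 TE was 0.46, 0.62, 0.73 and 1.33 in the control and at 2, 4 and 6 h, a rise at 6 h of 0.87 (SE 0.14) that exceeds that of 94.9% of the tested genes. At 19 h its TE of -0.07 (SE 0.41) rests on the 16 density reads and does not allow a direction. PTTG1 TE was 1.28, 1.11, 1.18, 0.60 and 0.42 from control to 19 h, changes of -0.67 (SE 0.09) at 6 h and -0.86 (SE 0.16) at 19 h. Of the tested genes 9.02% had a lower TE change at 6 h and 6.74% at 19 h.

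UBE2S TE rose by 0.51 (SE 0.08) at 19 h, opposite to PTTG1, so that the density of UBE2S fell 4.17-fold where its RNA fell 5.94-fold. AURKA TE was -0.38 in the control and -0.91 at 6 h, a change of -0.53 (SE 0.15), and at 19 h its change of -0.34 (SE 0.26) was within the 95% counting error. FZR1 TE was -0.49 in the control and -0.12, -0.10, -0.12 and -0.13 in the 4 treated libraries. All 4 treated values lie together, so the rise of 0.37 (SE 0.11) at 19 h is a step from the control library, and it was -0.00169 against the 2 h library. With 1 control library, a low control value and a lasting rise by 2 h cannot be told apart. CDC20 TE was 0.61, 0.64, 0.73, 0.60 and 0.995, with a change of 0.38 (SE 0.23) at 19 h that is within the 95% counting error. UBE2C and CDC25B were lower in TE at 19 h by values that did not last a change of scale, -0.28 and -0.25, which became -0.02 and 0.01 after rescaling without the 2 most abundant transcripts. After the same rescaling PLK1 was 2-fold higher in TE at 6 h, at 1.02, and the changes of PTTG1 and UBE2S at 19 h were -0.60 and 0.77. CDC25A TE was below the filter, and its sign at 19 h depends on the floor, as 1.07 with the floor of 1 FPKM and -0.995 without it.

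**Figure D3:**
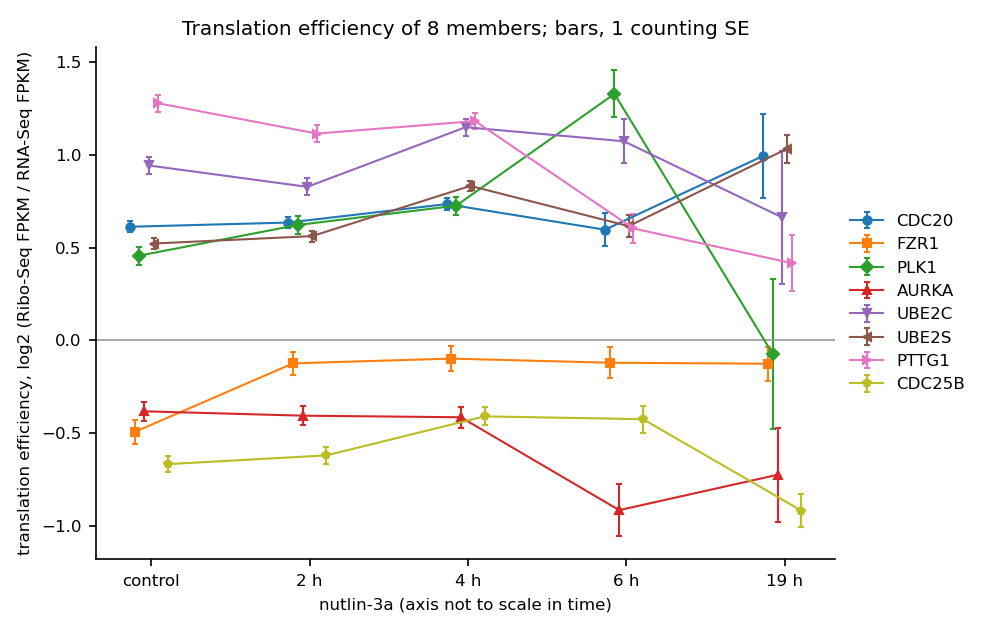
TE, the log2 ratio of Ribo-Seq to RNA-Seq FPKM, of the 8 genes that passed the filter, by time on nutlin-3a; points are single libraries, bars are 1 counting SE, and points are shifted sideways to keep the bars apart. PLK1 peaks at 6 h at 1.33, PTTG1 steps down between 4 and 6 h from 1.18 to 0.60, and the bars widen at 19 h as reads become few.

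TE levels went with transcript length, which the FPKM tables share. In the control the order was PTTG1, UBE2C, CDC20, UBE2S, PLK1, AURKA, FZR1, CDC25B and CDC25A, from 1.28 down to -1.07. UBE2S and PLK1, and AURKA and FZR1, were within the 95% counting error of each other. The transcripts of PTTG1 and UBE2C are 1070 and 850 nt long, and those of CDC25B and CDC25A are 3594 and 3783 nt. Spearman's rho of TE with length was -0.97 over the 9 genes and -0.75 over 6992 tested genes, which share these 2 libraries. The change of TE also had a slope over length, 0.16 per doubling of length at 6 h and 0.15 at 19 h over the tested genes. With this trend removed, a step chosen after the data were seen, the changes were 0.90 for PLK1 and -0.48 for PTTG1 at 6 h, and -0.66 for PTTG1 and 0.69 for UBE2S at 19 h.

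Genes around these 10 in the same pathway fell in RNA to unlike extents. The 13 tested of 14 APC/C core subunits, the body of the ligase that CDC20 and FZR1 serve, had no member past 2-fold in either direction in RNA at any time. Of the tested genes 5.39% were 2-fold lower in RNA at 6 h and 7.1% at 19 h. A count of 0 among 13 lies near these shares. Their median RNA change at 19 h was -0.21, where that of all tested genes was -0.07. ANAPC16 was highest, from 22.6 to 28.6 FPKM (0.34), C11orf51 was lowest at -0.66, and CDC27 and CDC23 were at -0.59 and -0.57. In density 6 of the 13 subunits were 2-fold lower at 19 h, CDC27 among them at -1.52, with a median of -0.84, beside 14.9% of the tested genes. This count was 1 of 13 after rescaling without the 2 most abundant transcripts, where 8.98% of the tested genes were 2-fold lower, and 2 of 13 after centring on the median of tested genes, where 10.7% were. The medians under these settings were -0.53 and -0.65. The 6 tested of 7 APC/C inhibitors and checkpoint proteins split. At 19 h 4 were at least 2-fold lower in RNA, beside 7.1% of the tested genes, and none was 2-fold higher. MAD2L1 and BUB1B, parts of the checkpoint complex that holds CDC20, went from 41.5 to 2.41 FPKM and from 26.9 to 0.392 FPKM, whereas MAD1L1 was at 15.4 FPKM in the control and 10.8 FPKM at 19 h.

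All 8 genes of the CDK1 switch were 2-fold lower in RNA at 6 and at 19 h, beside 5.39% and 7.1% of the tested genes. Their median change at 19 h was -4.33. CDK1 itself, the target of the CDC25 phosphatases, went from 49.5 to 0.946 FPKM. The kinases that oppose CDC25, WEE1 and PKMYT1, fell too, and WEE1 was at -1.14 by 4 h, when CDC25A was at -1.78. Of 8 genes in the list of mitotic exit and cohesion 6 were 2-fold lower in RNA at 19 h, beside 7.1% of the tested genes. Among them were NUSAP1, a microtubule-binding protein, at -5.18, and ESPL1, separase, at -3.52. The list is broader than its name and also holds SKP2 (-1.21) and ANLN (-5.17). ESPL1 was at 0.243 FPKM at 19 h, so its change is limited by the floor and was -5.56 without it. ENSA and ARPP19, inhibitors of the phosphatase PP2A, were at -0.27 and -0.45.

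Other Polo and Aurora kinases and their cofactors divided by member. Of 10 tested genes among 14, 8 were 2-fold lower in RNA at 19 h, beside 7.1% of the tested genes, and 1 was 2-fold higher. Their median was -4.41 (-5.26 without the floor). AURKB went from 38.7 to 0.418 FPKM, and CDCA8, its partner in the chromosomal passenger complex, from 48.6 to 0.389 FPKM. The Polo kinase PLK3 moved the other way to PLK1, from 10.4 to 35.1 FPKM in RNA (1.76) and from 8.97 to 29.0 FPKM in density, and it was already 1.36 above the control in RNA at 2 h. Against the 2 h library PLK3 was no longer past 2-fold at 19 h. PLK2 was at 13.98 FPKM in the control and 15.5 FPKM at 19 h. Of the 29 tested of 31 other ubiquitin-conjugating enzymes 1 was 2-fold lower in RNA at 19 h. That count is near the share of all tested genes, 7.1%. The enzyme was UBE2T, of DNA crosslink repair, which went from 46.0 to 3.12 FPKM (-3.88). UBE2H was the highest at 0.67, and the median of the list was -0.14.

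**Figure D4:**
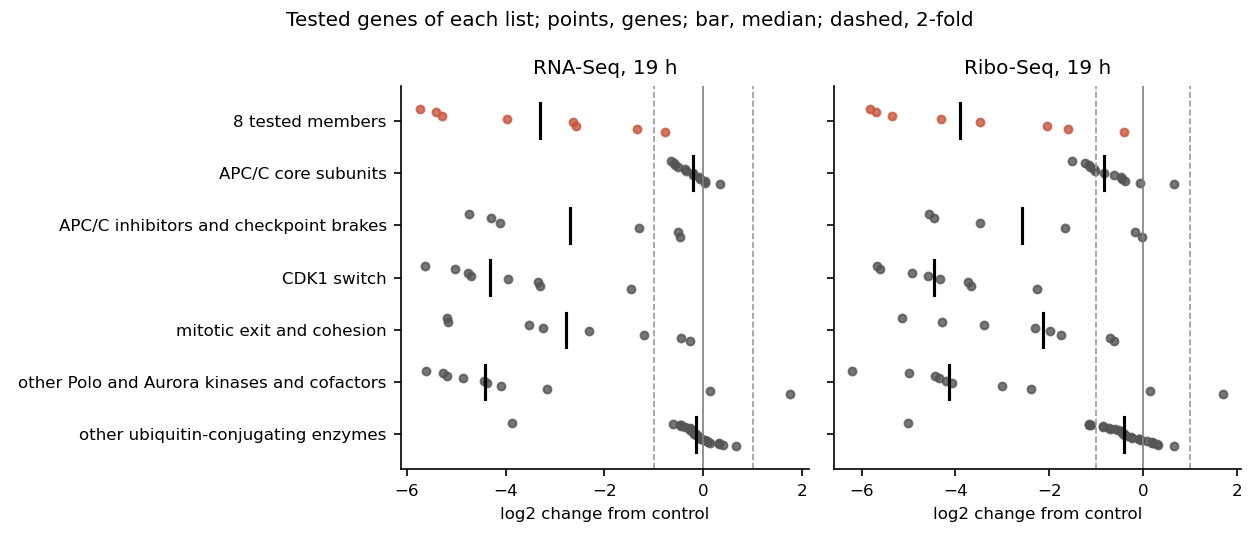
Log2 change from control at 19 h in RNA-Seq (left) and Ribo-Seq (right) for the tested genes of each list; points are genes, red for the 8 genes of the report that passed the filter, black bars are medians, and dashed lines mark 2-fold. APC/C core subunits and other ubiquitin-conjugating enzymes have medians near 0 in RNA (-0.21 and -0.14), and the CDK1 switch is 2-fold lower throughout.

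Genes with the time course most like each of these were found by the root mean square (RMS) difference of log2 changes over the 8 treated libraries, among the tested genes. CDC20 was nearest to the kinesin KIF20A (RMS 0.13), then to CDK1 (0.23) and the kinesin KIF2C (0.28). KIF2C, the spindle protein TACC3 and NUSAP1 were nearest to PLK1, at 0.34, 0.36 and 0.37. AURKA was nearest to MAD2L1 (0.15), the phosphatase CDKN3 and the origin recognition subunit ORC6, and UBE2C to NUSAP1 (0.26), KIF20A and the microtubule bundler PRC1. UBE2S was nearest to LMNB2, lamin B2 (0.14), followed by TM4SF1 and SLC43A3, and PTTG1 to STMN1, stathmin (0.19), EXOSC8 and the histone variant H2AFZ. CDC25A was nearest to PAQR4 (0.36), CDKN2D and ORC1, and all of its values at 6 and 19 h were at the floor. RNA of CDK1, KIF2C, ORC6 and ORC1 was also below the floor at 19 h, at 0.946, 0.56, 0.755 and 0.182 FPKM. Density of PLK1 was below it too, so the floor enters these distances. CDC25B was nearest to DCTPP1 (0.12), DCAF15 and CCDC111, and FZR1 to CXorf69 (0.14) and PHF10. CDC25C, with no Ribo-Seq values, was not compared.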

How the data were processed

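RNA-Seq and Ribo-Seq libraries of BJ cells at 5 times (1 library per time and assay) were analysed from the 2 FPKM tables that the authors deposited. Per the study's methods and the processing notes, the authors aligned reads with Bowtie, kept unique hits, and used 1 protein-coding transcript per gene from Ensembl 65; the build named is hg19. The table whose name holds only Ribo-Seq was taken as that assay, and the other, named for both with 1 column per time, as RNA-Seq; 20 of 26 histone transcripts in both tables, which lack a poly(A) tail, were under 1 FPKM in the control read as RNA-Seq, and 0 were in that read as Ribo-Seq. The methods count Ribo-Seq reads in the coding sequence, but the column names say total, and the lengths of the 9 shared members were the same from either table, so reads outside the coding sequence may be part of the densities. The study describes a batch effect between runs. Samples were grouped by the labels, and 0 per-sample columns were left out.

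The 10 members and all lists were chosen with earlier results of these data known. A floor of 1 FPKM was applied before log2 ratios to the control were formed. Genes counted as tested reached 5 FPKM in 1 or more libraries of both assays. A gene was called past 2-fold. With 1 library per group no p-value was computed. FPKM values are whole reads scaled by length and library total, both of which can be solved for from low values (lengths for 99.7% of 11258 shared transcripts) with Python 3.11.15, numpy 2.4.6, pandas 2.3.3 and scipy 1.17.1. The recovery and the calls were tested on simulated data. The simulated reads were drawn with counting error alone, from the recovered lengths. They therefore do not test the calls against a spread between cultures. The counting SE is the square root of the summed inverse reads over the natural log of 2, intervals of folds are exact conditional binomial (Clopper-Pearson, 95%), and both cover counting error only. The genes named are the members, the 3 tested genes nearest to each by RMS difference (1 of them is not reported here), and from each of 7 lists at most the 3 largest RNA changes at 19 h in either direction, with APC/C subunits and Polo kinases set beside CDC20, FZR1 or PLK1. Alternatives were a pseudocount of 1 FPKM, a floor of 5 FPKM, no floor, the 2 h baseline, centring, rescaling, a 1.5-fold threshold, a sliding cut-off of 1.75 local SDs and no filter; removal of the length trend was added after seeing the data.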

Additional observations from a re-analysis of the deposited data

Results flagged for a closer look

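Density of 4 genes lay on opposite sides of the control at different times, each beyond the 95% counting error and also after centring on the median of the tested genes. Each value rests on 1 library, and the difference between times was not tested. The log2 change of FZR1 density was 0.23 at 2 h and -0.49 at 6 h. With the trend over transcript length removed the FZR1 value at 2 h was 0.13, within its 95% counting error of 0.151 to either side. That of PLK1 was 0.13 at 2 h and -5.82 at 19 h. UBE2S density was 0.31 at 4 h and -2.06 at 19 h. CDC25A density was 0.42 at 2 h, where RNA was -0.07 (SE 0.08), and -1.86 at 6 h, a value set by the floor. In RNA-Seq no gene of the 10 met the same condition.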

How the results depend on the processing

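The counts of genes 2-fold lower at 6 and 19 h stayed within 1.5 times under every alternative run, in RNA and in density. In RNA at 4 h the count of 0 became 1 with a 1.5-fold threshold (CDC25B), 2 with the sliding cut-off (CDC20 and CDC25B) and 1 with no filter (CDC25A). In TE at 6 h the count of 0 became 1 after rescaling without the most abundant transcripts (PLK1), 2 with a 1.5-fold threshold (PLK1 and PTTG1), 1 with the sliding cut-off (PLK1) and 1 with no filter (CDC25A). In TE at 19 h it became 1 with a 1.5-fold threshold (PTTG1) and 1 with no filter (CDC25A). The 19 h TE change of CDC25A turned from 1.07 to -0.995 without a floor, since 3 density reads and values below the floor set it. Depth limits density at 19 h, where PLK1 rests on 16 reads and UBE2C on 24. No paired analysis was possible because each group holds 1 library and the labels give no replicate numbers.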
